A study of Mus musculus with 6 samples.

Results

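Endogenous retroviruses of the ERVK family were examined in open chromatin of mouse liver. The members were the ATAC-seq peaks whose annotation named a repeat of the class LTR and the family ERVK at the peak's position, and they numbered 2469 of the 74076 peaks in the merged list, or 3.33%. ATAC-seq cuts accessible DNA with a transposase and counts the resulting fragments. Both groups were wild-type male C57BL/6J mice of 8 weeks, and the tissue was fresh whole liver. The 3 fasted libraries, numbered 1, 3 and 4, came from mice without food for 12 h from 10 pm. The 3 refed libraries, numbered 5, 7 and 8, came from mice fasted for 12 h from 10 am and then allowed to eat a diet holding 69% sucrose and 10% fat over the 12 h from 10 pm. All animals were killed at 10 am. The comparison asks which ERVK elements were more or less accessible after refeeding than after a fast. The hours of the fast, eating itself and the sucrose diet cannot be told apart, and no label says that each library was its own animal, so each p-value measures only how these libraries spread.

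ERVK elements are class II endogenous retroviruses, which in the mouse include the intracisternal A particle (IAP) and the early transposon (ETn) families, some of whose copies still move in the genome. A full copy has an internal region with viral genes between a pair of long terminal repeats (LTRs). Many copies have lost the internal region and remain as a solo LTR, which keeps the promoter and enhancer sequence of the virus. In somatic tissue young copies are held silent by DNA methylation and by the repressor TRIM28, which KRAB zinc finger proteins bring to the element and which in turn recruits the histone methyltransferase SETDB1. Young copies are nearly identical to each other, so short reads from them are difficult to assign to 1 place, and per the file headers only unique reads were counted.

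Reads within peaks numbered 3205634 to 4850613 per library, with the fewest in fasted replicate 3 and refed replicate 7, and the median peak held 19 to 33 reads in a library. Accessibility is given as RPKM, the reads in a peak scaled to its length and to the library's reads in all peaks. The liver label was checked against marker genes. Peaks nearest hepatocyte markers summed to 1892 to 2161 RPKM in fasted and 1970 to 2077 RPKM in refed libraries, over 91 peaks at 9 of 10 genes, and the promoters of Alb, Apoa1 and Ttr averaged 30.1, 43.4 and 39.3 RPKM in fasted liver. Markers of other cells were also open. Summed levels in fasted and refed libraries were 213 to 232 and 182 to 201 RPKM for lymphocyte markers (6 of 15 genes with a peak), 82.7 to 93.8 and 81.1 to 88.7 RPKM for macrophage and Kupffer cell markers (5 of 12), 1046 to 1054 and 1024 to 1123 RPKM for endothelial markers (10 of 10), 309 to 331 and 338 to 353 RPKM for stellate cell markers (8 of 10), and 402 to 482 and 442 to 490 RPKM for cholangiocyte markers (5 of 7). The lymphocyte and stellate cell sums did not overlap between the groups, and their part in the results on ERVK peaks was not tested. In bulk tissue a smaller number of cells of a type and lower accessibility per cell cannot be told apart.

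The ERVK peaks carried 130 element names, of which 55 had at least 10 peaks and 13 had a single one. IAPEz-int and IAPEy-int, internal regions of IAP elements, were the most frequent names with 433 and 251 peaks, together 27.7% of the members. They were followed by RMER19B with 107, RLTRETN_Mm (the LTR of ETn elements) with 101, RMER17B with 98 and IAPLTR3-int with 91 peaks. RMER and RLTR are names of LTR families in the repeat annotation. By group of names, 989 peaks lay in IAP elements, 164 in ETn elements, 599 in RMER elements, 652 in other RLTR elements and 65 in the rest.

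All ERVK peaks were annotated as intergenic (1911 of 2469, or 77.4%) or intronic (558), since the annotation names a repeat only for such peaks. The median distance to the nearest gene start was 59965 bp, against 32240 bp for all 58484 intronic and intergenic peaks and 20090 bp for all peaks. Within 1 kb of a gene start lay 6 ERVK peaks, against 2030 of the intronic and intergenic peaks. The peaks had a median width of 339 bp (200 to 2141 bp), against 435 bp. Chromosome 1 had the most, 259, which was 4.78% of its peaks, while the share was 1.83% on chromosome 11, 1.88% on chromosome 19 and 4.43% on the X. Another ERVK peak lay within 1 kb for 339 members (13.7%) and within 10 kb for 586 (23.7%). Whether such neighbours belong to 1 insertion was not tested.

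A large part of the ERVK peaks held no unique read. No read was counted in any of the 6 libraries at 478 ERVK peaks (19.4%), against 5.04% of all peaks, and at least 1 library was empty at 840 (34.0%), against 10.5%. ERVK thus supplied 12.8% of all peaks without a read. The empty peaks were mostly of 1 name. IAPEz-int accounted for 326 of the 478, which was 68.2% of the empty ERVK peaks and 75.3% of its own 433. Over the 24239371 reads in peaks of all libraries, a count of 0 allows up to 3 reads, or 0.447 RPKM at the median width of these empty IAPEz-int peaks, a limit that covers counting error only. The zeros and this limit refer to unique reads. The files do not say whether the peaks were called before reads with several possible places were removed, so such reads may lie at these peaks uncounted.

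Other names differed widely in this respect. The count was 43 of 251 for IAPEy-int, 12 of 30 for IAPLTR2_Mm, 8 of 29 for MMERVK10C-int and 8 of 101 for RLTRETN_Mm. It was 4 of 98 for RMER17B, 2 of 107 for RMER19B, 1 of 54 for RMER13B and 0 of 43 for RMER19C. Internal regions were empty at 394 of 1081 peaks (36.4%) and LTRs at 84 of 1388 (6.05%). IAPEz-int alone made up 326 of the 394. Some LTR names were also mostly empty, such as IAPLTR1_Mm (5 of 8) and RLTR22_Mus (6 of 9). Only names ending in -int were counted as internal, so IAPLTR4_I (2 peaks, 1 empty) stands with the LTRs. Among other repeat classes, 20.3% of ERV1 peaks (another retrovirus class) and 25.7% of LINE L1 peaks were empty, while MaLR and ERVL peaks, which are older LTR elements, were empty at 2.78% and 3.59%. Intronic and intergenic peaks with no repeat named were empty at 1.47%. The part of read placement in these values was not tested.

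**Figure D1:**
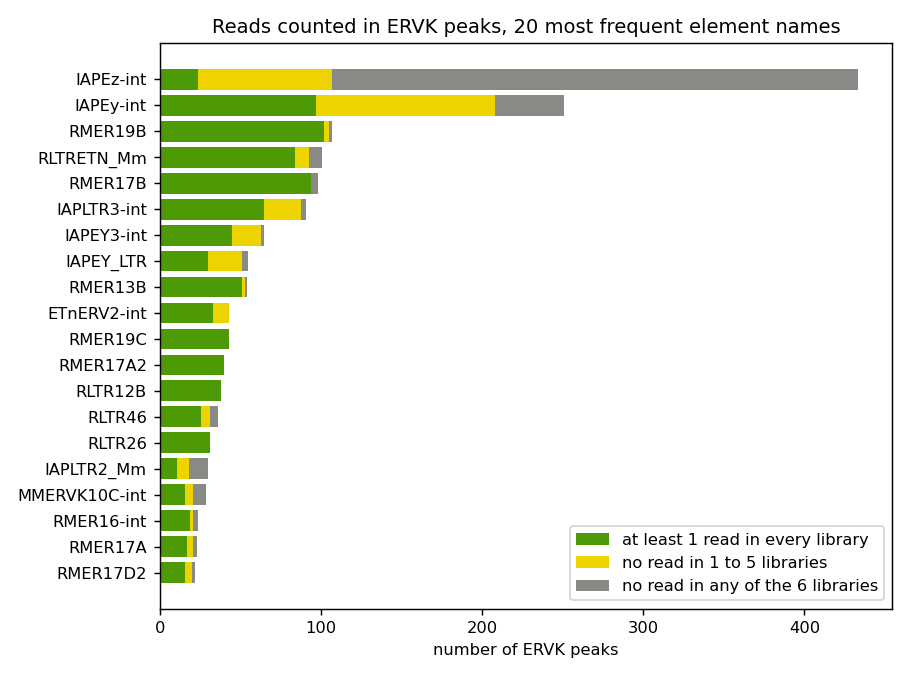
Number of ERVK peaks for the 20 most frequent element names, split by whether every library, some libraries or no library had a read. IAPEz-int has no read at 326 of its 433 peaks, while RMER19C has a read in every library at all 43.

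The median ERVK peak had 6.37 RPKM over the 6 libraries, against 15.7 RPKM for all peaks. The median was 1.12 RPKM in IAP, 10.6 RPKM in ETn, 13.0 RPKM in RMER and 13.0 RPKM in other RLTR peaks. A total of 60 reads over the 6 libraries, which is 10 per library on average, was reached by 1133 ERVK peaks (45.9%) and by 81.7% of all peaks. It was reached by 66 IAP peaks, 94 ETn peaks, 468 RMER peaks and 461 other RLTR peaks. Within these better-covered peaks the median ERVK level was 14.4 RPKM, against 17.9 RPKM for all.

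The strongest ERVK peak was an RMER4B element at chr11:3047600-3047812, in intron 14 of 32 of the transcript NM_030207 of Sfi1, a centrosome gene, with the pseudogene Pisd-ps3 as the nearest gene start. It had 140, 160 and 144 RPKM in the fasted libraries and 127, 173 and 139 in the refed. The groups overlapped, and limma's adjusted p was 0.991. Reads of a locus with near-identical copies are uncertain even when counted as unique.

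The next were an RMER13B element near Mir6419 (chr2:17256950-17257588), an RMER17D2 element 241685 bp from Rnf152 (chr1:107011280-107011925), an RMER19B element near Mir6411 (chr10:103859410-103860597) and an RMER17C element 5212 bp upstream of Rtp3 (chr9:110897129-110897729). The RMER13B peak had 57.8, 43.4 and 53.2 RPKM in the fasted libraries and 54.7, 48.3 and 52.2 in the refed. The RMER17D2 peak had 64.5, 40.6 and 52.3 RPKM in the fasted libraries and 48.6, 34.9 and 45.7 in the refed. The RMER17C peak had 49.1, 49.3 and 44.4 RPKM in the fasted libraries and 43.4, 41.1 and 46.2 in the refed. At these 3 elements and at RMER19B the groups overlapped and none passed the test.

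The strongest peak of IAPEz-int was far weaker than these. It lay 54539 bp from Helt, a transcription factor gene, and had 6.27, 6.52 and 7.44 RPKM in the fasted libraries and 8.19, 5.28 and 9.34 in the refed. The strongest IAPEy-int peak lay 12986 bp upstream of Inmt, an amine N-methyltransferase gene, with 12.5, 7.21 and 19.1 RPKM in the fasted libraries and 13.1, 17.8 and 18.5 in the refed. The strongest RLTRETN_Mm peak, near Tbl1xr1, had 36.6, 24.4 and 31.5 RPKM in the fasted libraries and 32.3, 33.2 and 31.3 in the refed. In each of the 3 the groups overlapped.

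Accessibility changed at few ERVK peaks. With limma on the log2 RPKM of all peaks, 14 of 2469 passed an adjusted p of 0.05, or 0.567%, against 1.23% of all peaks. Of these, 10 were higher in refed liver, against 594 of all 74076 peaks (0.802%), and 4 were lower, against 316 (0.427%). With median centring the counts were 15 higher and 12 lower, with DESeq2 8 and 6, and with quantile normalization 1 and 1. For median centring and quantile normalization the share over all peaks is not given here. Of the 14 limma calls 13 were among the 1133 ERVK peaks with at least 60 reads (1.15%), against 1.42% of such peaks. When limma was fitted to these better-covered peaks alone, 13 ERVK peaks were higher and 8 lower (1.85%), against 1.88%. MaLR had 38 of 1513 (2.51%), ERV1 4 of 1176 (0.340%) and L1 35 of 8191 (0.427%).

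Under looser criteria and with other tools the shares stood on both sides of the background. An unadjusted p below 0.05 was reached by 315 ERVK peaks (12.8%), against 14.5% of all peaks. Of these 244 (9.88%) were higher in refed liver, against 8.91%, and 71 (2.88%) were lower, against 5.64%. The groups did not overlap at 402 (16.3%), against 19.0%. On recovered reads, edgeR's quasi-likelihood test called 39 higher and 12 lower of 1173 ERVK peaks tested (4.35%, against 4.01% of all peaks it tested), and 13 of these were among the 14 limma calls. DESeq2 called 1.51% of the 926 it tested, against 1.66%, and shared 10 calls with limma. The authors' deposited table lists 68 ERVK peaks, 52 higher and 16 lower (2.75%, against 4.47% of all peaks), and it holds all 14 limma calls.

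The 14 called peaks carried 14 different element names, and 13 lay in LTRs. Calls depended on single libraries. Of the 14, limma lost 13 without refed replicate 8, 12 without fasted replicate 4, 10 without refed replicate 7, 9 without refed replicate 5, 5 without fasted replicate 1 and 1 without fasted replicate 3. The changes below are log2 differences in RPKM, refed minus fasted, with limma's standard error and adjusted p, and every number of lost calls refers to these 6 fits with 1 library left out.

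**Figure D2:**
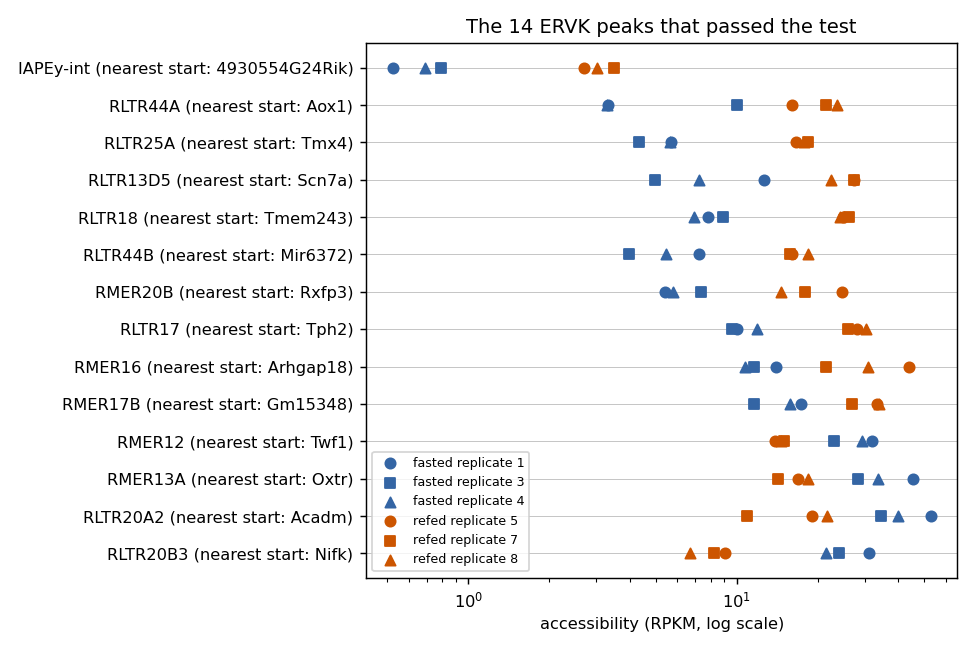
RPKM on a log axis of the 14 ERVK peaks that passed limma's adjusted p of 0.05, for each fasted (blue) and refed (orange) library, with the element and the gene of the nearest start. The groups stand apart at every peak, 10 higher and 4 lower in refed liver, and a library without a read is drawn at the value of 0.9 reads.

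Among the peaks lower in refed liver, an RLTR20A2 element at chr3:153610282-153610508 lay 2788 bp upstream of Acadm, the medium-chain acyl-CoA dehydrogenase of mitochondrial fatty acid oxidation. It had 52.7, 34.4 and 39.9 RPKM in the fasted libraries and 19.0, 10.9 and 21.7 in the refed. Every fasted library stood above every refed one, and the change was -1.34 ± 0.24 (adjusted p = 0.0224), lost without fasted replicate 4. The promoter peak of Acadm, 2178 bp away, changed by 0.08 (adjusted p = 0.677).

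An RLTR20B3 element at chr1:120246403-120247040, 28301 bp from the start of Nifk, a nucleolar protein gene, had 31.0, 24.0 and 21.5 RPKM in the fasted libraries and 9.01, 8.23 and 6.70 in the refed. All fasted values were more than double those after refeeding, and the change was -1.67 ± 0.28 (adjusted p = 0.0148), lost in 2 of the fits. Both called RLTR20 elements were thus lower after refeeding.

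An RMER13A element at chr6:112448664-112449160 lay 9110 bp upstream of Oxtr, the oxytocin receptor gene. Its levels were 45.2, 28.2 and 33.5 RPKM in the fasted libraries and 16.9, 14.3 and 18.5 in the refed, without overlap. The change was -1.09 ± 0.20 (adjusted p = 0.0245), lost in 4 of the fits. All 5 neighbouring peaks within 50 kb also had a negative change, with a median of -0.27, and none of them passed. For the called RLTR20B3, RLTR20A2 and RMER12 elements, 2 of 6, 3 of 10 and 2 of 5 neighbours had a negative change. Around the called peaks higher in refed liver, neighbours within 50 kb with a positive change were counted likewise. They were 3 of 3 for RMER16, 2 of 2 for RLTR13D5, 5 of 6 for RMER17B and 11 of 17 for RLTR18. The count was 4 of 8 for RMER20B, 2 of 4 for RLTR25A and 1 of 2 for RLTR17. It was 1 of 3 for IAPEy-int, 2 of 7 for RLTR44A and 0 of 1 for RLTR44B.

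An RMER12 element at chr15:94412432-94413174 lay in intron 6 of 8 of Twf1, which encodes the actin-binding protein twinfilin. Levels were 31.9, 23.1 and 29.3 RPKM in the fasted libraries and 13.9, 15.0 and 14.7 in the refed. The groups did not overlap, and the change was -0.94 ± 0.20 (adjusted p = 0.0423), lost in 5 of the fits. The Twf1 promoter peak stood at -0.00061 on the log2 scale (adjusted p = 0.999).

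Among the peaks higher in refed liver, an RLTR18 element at chr5:9069580-9070002, 30946 bp upstream of Tmem243, had the smallest p. It had 7.80, 8.85 and 6.94 RPKM in the fasted libraries and 24.9, 26.3 and 24.3 in the refed, from 12 to 16 and from 36 to 48 reads. The libraries of each group lay close together, and the change was 1.68 ± 0.26 (adjusted p = 0.0110), lost in 2 of the fits. A neighbouring peak 174 bp away was also called, at 1.03 (adjusted p = 0.0208).

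An RLTR17 element at chr10:114537209-114537661 lay in intron 8 of 10 of Tph2, the tryptophan hydroxylase of serotonin neurons. It had 10.0, 9.64 and 11.9 RPKM in the fasted libraries and 28.0, 25.9 and 30.2 in the refed. The groups were well apart, and the change was 1.42 ± 0.22 (adjusted p = 0.0116), lost without refed replicate 8 (0.0843).

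An RLTR44A element at chr1:58094067-58094438 lay in intron 1 of 34 of Aox1, which encodes the liver enzyme aldehyde oxidase. It had 3.33, 10.1 and 3.29 RPKM in the fasted libraries and 16.1, 21.6 and 23.6 in the refed. Fasted replicate 3 stood above the other fasted libraries, and the groups did not overlap. The change was 2.07 ± 0.45 (adjusted p = 0.0437), lost in 5 of the fits.

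An RLTR44B element at chr11:25814114-25814427 lay in intron 2 of 5 of the transcript NR_027973 of the long non-coding RNA gene 5730522E02Rik, 287970 bp from the nearest listed start, that of Mir6372. It had 7.22, 3.97 and 5.45 RPKM in the fasted libraries and 16.0, 15.7 and 18.4 in the refed, without overlap. The change was 1.63 ± 0.37 (adjusted p = 0.0491), lost in 5 of the fits, and DESeq2 gave an adjusted p of 0.110. Both called RLTR44 elements were thus higher after refeeding.

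An RMER17B element at chr8:12715866-12716269, in intron 2 of 3 of the non-coding transcript of Gm15348, had 17.4, 11.6 and 15.7 RPKM in the fasted libraries and 33.2, 26.7 and 33.9 in the refed. The groups did not overlap, and the change was 1.08 ± 0.21 (adjusted p = 0.0269), lost in 4 of the fits and at 0.0519 with DESeq2. The promoter peak of Gm15348, 2851 bp away, was also called, at 1.16 (adjusted p = 0.0251).

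An RMER20B element at chr15:10959852-10960231, 7682 bp from the start of Rxfp3, the relaxin-3 receptor gene, had 5.43, 7.39 and 5.79 RPKM in the fasted libraries and 24.6, 17.9 and 14.6 in the refed. Refed replicate 5 was the highest, and no fasted library reached a refed one. The change was 1.60 ± 0.34 (adjusted p = 0.0420), lost in 5 of the fits. A called peak nearest Slc45a2, a pigment cell transporter gene, lay within 50 kb and changed by 1.46. Together with Tmem243 and Gm15348 this made 3 of the 14 called ERVK peaks with a called neighbour within 50 kb, each with the same sign. How often other called peaks have such a neighbour was not counted.

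An RMER16 element at chr10:26732700-26733316 lay in intron 54 of 63 of the transcript NM_008481 of Lama2, a laminin subunit of basement membranes. The nearest listed start, that of Arhgap18, was 240690 bp away. The element had 14.0, 11.6 and 10.7 RPKM in the fasted libraries and 43.8, 21.5 and 30.8 in the refed. The refed libraries spread over a wide range but did not reach the fasted ones, and the change was 1.35 ± 0.26 (adjusted p = 0.0261), lost in 3 of the fits.

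An RLTR13D5 element at chr2:66692172-66692611, 69424 bp upstream of the sodium channel gene Scn7a, had 12.7, 4.96 and 7.23 RPKM in the fasted libraries and 27.2, 27.4 and 22.3 in the refed. The groups did not overlap, and the change was 1.73 ± 0.34 (adjusted p = 0.0272), lost in 4 of the fits.

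The remaining higher peaks rested on few reads. An RLTR25A element at chr2:134484917-134485133, 15168 bp upstream of Tmx4, a thioredoxin-like membrane protein gene, had 6, 3 and 5 reads in fasted and 15, 13 and 18 reads in refed libraries. That corresponded to 5.70, 4.31 and 5.64 against 16.6, 18.5 and 17.7 RPKM, without overlap, and the change was 1.76 ± 0.34 (adjusted p = 0.0276), lost in 4 of the fits. DESeq2 gave no adjusted p for it.

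The 1 called peak in an internal region was IAPEy-int at chr11:13293664-13294017, 785204 bp from the nearest listed start, 4930554G24Rik. It had 0, 0 and 1 reads in fasted and 4, 4 and 5 reads in refed libraries, so every refed library was above every fasted one. The ratio of reads, scaled to the reads in peaks, was 13.1, with an exact 95% interval of 1.96 to 555 that covers counting error only. Limma's adjusted p was 0.0306, lost in 5 of the fits, and edgeR's filter on low counts removed the peak.

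Large differences that missed the threshold were also found beside P450 genes. An RMER17B element 16701 bp from Cyp4a10, which encodes a fatty acid hydroxylase, had 10.8, 24.0 and 21.4 RPKM in the fasted libraries and 2.51, 6.48 and 5.23 in the refed. The groups did not overlap, and the difference was -2.01 ± 0.46 with an adjusted p of 0.0541 from limma and 0.0101 from edgeR. An RMER19C element 33824 bp from Cyp3a25, a cytochrome P450 gene, had 16.5, 15.4 and 8.68 RPKM in the fasted libraries and 3.07, 4.87 and 3.79 in the refed.

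This difference was -1.76 ± 0.44, with an adjusted p of 0.0693 from limma and 0.000679 from edgeR. The other large differences lay in young elements with few reads. An IAPEz-int peak 239341 bp from Podxl had 3, 3 and 3 reads in fasted and 0, 1 and 0 reads in refed libraries (ratio 8.96, exact 95% interval 1.24 to 393; limma adjusted p = 0.0563). An IAPEY3-int peak near Gm7977 had 2, 1 and 1 against 4, 9 and 5 reads (limma adjusted p = 0.0772). An ETnERV2-int peak near Gm3434 had 4, 1 and 7 against 14, 8 and 17 reads (limma adjusted p = 0.0963, edgeR 0.0448). An RLTRETN_Mm peak near Oprm1 had 1, 3 and 4 against 6, 8 and 20 reads (limma adjusted p = 0.146). EdgeR's filter removed these few-read peaks except the one near Gm3434. The authors' edgeR table lists the peaks near Gm3434 and Oprm1, with FDRs of 0.0196 and 0.0352.

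The strongest elements within 1 kb of a gene start did not pass. They were MMERVK10C-int 779 bp from Gm6566, RLTR33 885 bp from Gm839, RMER4B 926 bp from Tulp2, ETnERV-int 404 bp from Nat8f5 and RLTR13D6 885 bp from Aoc1, the diamine oxidase gene. The Aoc1 element had 17.0, 9.21 and 12.5 RPKM in the fasted libraries and 10.8, 6.69 and 6.31 in the refed, which overlapped (limma adjusted p = 0.436).

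Small differences in one direction were common among families, below the level of single calls. Over the 1133 ERVK peaks with at least 60 reads the median log2 change was 0.12, with 683 positive and 450 negative, while over all such peaks the median was -0.0044 and 49.3% were positive. The ERVK median was 0.07 with quantile normalization, 0.08 with median centring and 0.07 without fasted replicate 3. It was 0.16 in L1, 0.10 in ERV1, 0.01 in MaLR and -0.04 in ERVL peaks. These medians describe the libraries and carry no test, and the families below were picked after their values were seen.

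RMER17 elements, with 153 such peaks under 8 names, had a median change of 0.37, with 116 positive and 37 negative, of which 1 was called. Set against each peak's mean over the 6 libraries, the median log2 level was -0.30, 0.02 and -0.13 in the fasted libraries (1, 3, 4) and 0.07, 0.32 and 0.19 in the refed libraries (5, 7, 8). All refed libraries stood above all fasted ones. Within each group the library with the fewest reads was the highest. The part of depth was not tested. Without fasted replicate 3 and refed replicate 7 the median was 0.40. Over the 6 fits with 1 library left out it was 0.25 to 0.47, and with quantile normalization it was 0.26.

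RMER17B, the largest name, had a median of 0.43 with 61 of 74 positive, and RMER17A2 had 0.42 over 29 peaks. RMER17A, RMER17D, RMER17D2 and RMER17C-int had 0.45, 0.37, 0.26 and 0.22 over 10, 5, 11 and 5 peaks. RMER17C had -0.04 over 14 peaks (7 positive) and RMER17A-int had -0.11 over 5 (1 positive). As a share of all reads in peaks, all 227 RMER17 peaks took 0.0855%, 0.0918% and 0.0857% in fasted and 0.0953%, 0.110% and 0.105% in refed libraries. The shares did not overlap, and the mean was 1.18 times as large after refeeding. This was not particular to RMER17. The shares of L1, ERV1 and RMER13 peaks did not overlap either, with means 1.12, 1.08 and 1.13 times as large. IAP peaks also had 1.18 times, but with overlap, and MaLR (1.03) and ERVL (0.988) overlapped. RMER17B supplied 0.0342%, 0.0426% and 0.0375% against 0.0420%, 0.0543% and 0.0482%, where fasted replicate 3 and refed replicate 5 overlapped.

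RMER13 elements behaved alike in size, with a median of 0.39 over 53 peaks (36 positive, 17 negative). Their median levels were -0.30, -0.01 and -0.14 in fasted and 0.01, 0.28 and 0.23 in refed libraries, which did not overlap but came close. By name, RMER13B had a median of 0.49 over 40 peaks (30 positive) and RMER13A had -0.0097 over 13 (6 positive). The called RMER13A peak near Oxtr was opposite in sign to the RMER13 median. RLTR44 elements had the highest median of the families drawn, 0.59 over 20 peaks (17 positive, 3 negative), with -0.33, 0.01 and -0.30 in fasted and 0.14, 0.54 and 0.17 in refed libraries.

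RLTR20 elements stood on the other side, with a median of -0.13 over 65 peaks (25 positive, 40 negative). Library medians were 0.21, -0.04 and 0.06 in fasted and -0.01, -0.18 and -0.00013 in refed libraries and overlapped, and without refed replicate 7 the median was -0.02. RMER19, with 158 peaks, had 0.12, which was 0.03 without fasted replicate 3. RLTR13 had 0.25 over 65 peaks and 0.07 without fasted replicate 3. RMER6 had 0.21 over 39 peaks and 0.09 without fasted replicate 3.

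IAP and ETn elements had medians near 0 or medians that rested on 1 library. IAP peaks with at least 60 reads, 66 of 989, had a median change of 0.23 (49 positive, 17 negative), which was 0.08 without fasted replicate 1 and 0.04 with quantile normalization. Their library medians were -0.35, 0.07 and 0.01 in fasted and 0.09, 0.25 and 0.06 in refed libraries, which overlapped. ETn peaks had a median of -0.02 over 94 peaks (46 positive, 48 negative), and its sign varied with the library left out. RLTRETN_Mm alone had -0.09 over 67 peaks, and 0.0067 without refed replicate 5.

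**Figure D3:**
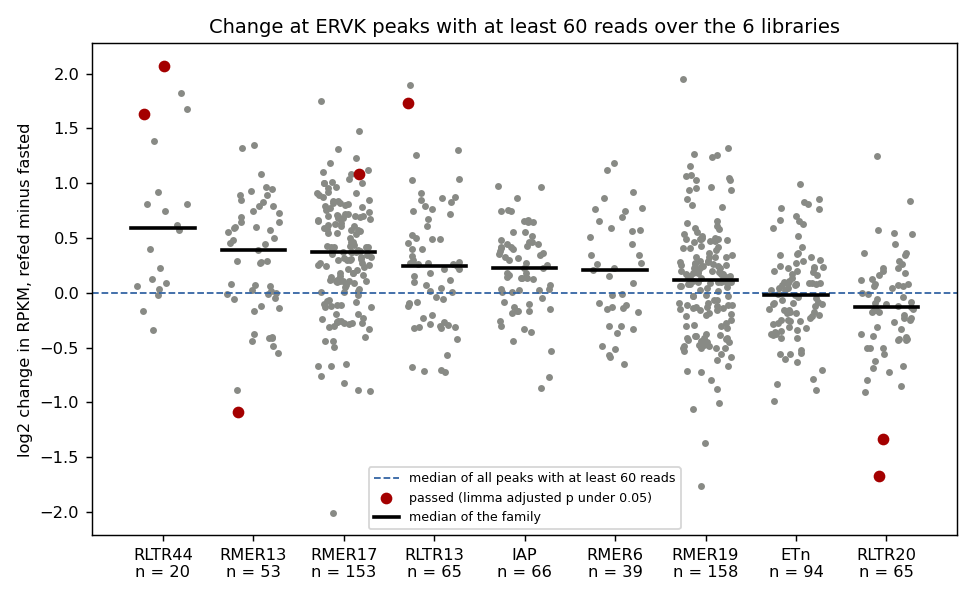
Log2 change in RPKM, refed minus fasted, of single ERVK peaks with at least 60 reads, by family, with the family median as a black bar and called peaks in red. Among the families drawn, the median is highest in RLTR44 (0.59), RMER13 (0.39) and RMER17 (0.37) and lowest in RLTR20 (-0.13), and most single peaks do not pass the test.

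Distance from genes ran with the size of these changes. Among ERVK peaks with at least 60 reads the median log2 change was -0.06 within 10 kb of a gene start (229 peaks), 0.06 from 10 to 50 kb (412), 0.11 from 50 to 100 kb (139), 0.29 from 100 to 500 kb (260) and 0.53 beyond 500 kb (93 peaks, 89.2% positive). The order over the 5 ranges was the same for all peaks but the values were smaller, at 0.12 from 100 to 500 kb and 0.30 beyond 500 kb. Intronic and intergenic peaks with no repeat named had 0.09 and 0.22 in these ranges.

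Beyond 500 kb the ERVK library medians were -0.23, -0.27 and -0.16 in fasted and 0.32, 0.22 and 0.27 in refed libraries. All fasted libraries were low and all refed libraries were high, with a wide gap between them. The median was 0.44 to 0.53 over the fits with 1 library left out, 0.45 with quantile normalization and 0.49 with median centring. Over all peaks at this distance the library medians were -0.04, -0.31 and -0.09 in fasted and 0.29, 0.01 and 0.21 in refed libraries. These did not overlap either. Peaks with no repeat named at this distance had library medians of 0.12, -0.41 and -0.02 in fasted and 0.37, -0.13 and 0.18 in refed libraries, which overlapped. Closer to genes the sign was not stable: with 1 library left out the ERVK median ran up to 0.02 within 10 kb and down to -0.00080 from 10 to 50 kb.

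RMER17 peaks lay at a median of 123266 bp and RMER13 peaks at 227374 bp from a gene start. At the same distances the RMER17 median was furthest above that of the other ERVK peaks from 100 to 500 kb. It was 0.50 there against 0.21 (55 and 205 peaks), and 0.25 against 0.03 from 10 to 50 kb (35 and 377). Within 10 kb the medians were -0.08 (17 peaks) and -0.05 (212), from 50 to 100 kb they were 0.12 (20) and 0.11, and beyond 500 kb they were 0.48 (26) and 0.53 (67). No test was made of these differences. ERVK peaks were more often distant, with 27.5% at 100 to 500 kb and 12.4% beyond 500 kb, against 15.8% and 3.40% of all peaks.

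**Figure D4:**
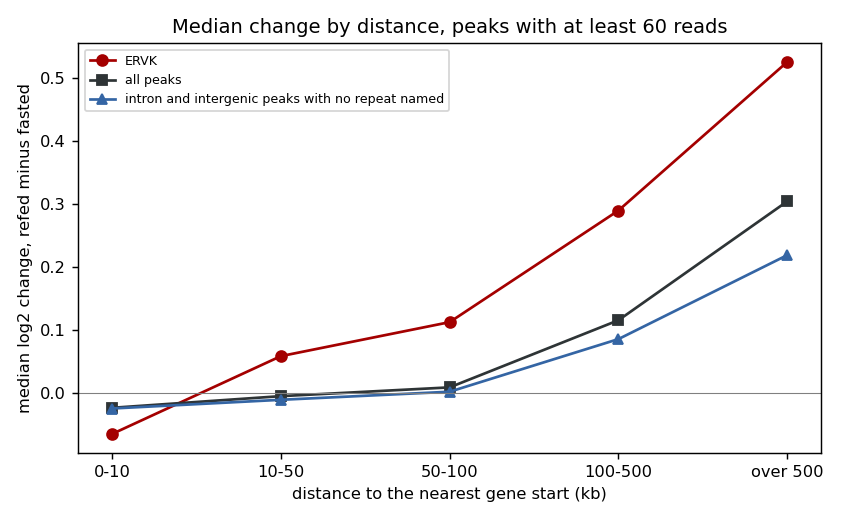
Median log2 change in RPKM, refed minus fasted, against distance to the nearest gene start in 5 ranges, for peaks with at least 60 reads. The ERVK line rises from -0.06 within 10 kb to 0.53 beyond 500 kb and lies above all peaks (0.30) and peaks with no repeat named (0.22) at the far end.

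Called peaks were few at every distance. Of the 14, 6 lay within 10 kb of a gene start, which was 1.78% of the 338 ERVK peaks there and compares with 1.31% of all peaks in that range. There were 3 among 812 ERVK peaks from 10 to 50 kb (0.369%, against 1.37% of all peaks) and 2 among 336 from 50 to 100 kb (0.595%, against 1.21%). From 100 to 500 kb there were 2 among 678 (0.295%, against 0.922%), and beyond 500 kb there was 1 among 305 (0.328%, against 0.515%).

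Read number moved with the change too among peaks with at least 60 reads. Below 60 reads, 858 ERVK peaks with at least 1 read had a median of 0.21, against 0.21 for all such peaks. ERVK peaks of 60 to below 120 reads had a median of 0.27 (514 peaks) against 0.04 for all peaks of that depth, those of 120 to below 240 reads had 0.07 (363) against 0.01, and those of at least 240 reads had 0.04 (256) against -0.02. The part of depth in the family and distance values was not tested.

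The summed accessibility of ERVK elements overlapped between the groups. ERVK peaks took 0.945%, 0.824% and 0.857% of all reads in peaks in the fasted and 0.963%, 0.901% and 0.963% in the refed libraries. The mean was 0.876% ± 0.0624 (SD, n = 3) in fasted and 0.943% ± 0.0357 (SD, n = 3) in refed liver. Fasted replicate 1 stood above refed replicate 7, so the groups overlapped. IAP peaks took 0.0556%, 0.0729% and 0.0657% against 0.0695%, 0.0832% and 0.0764%, and ETn peaks took 0.0877%, 0.0754% and 0.0807% against 0.0872%, 0.0769% and 0.0889%. Both overlapped, as did RMER (0.314% to 0.373% against 0.353% to 0.373%) and other RLTR peaks (0.338% to 0.396% against 0.360% to 0.404%).

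**Figure D5:**
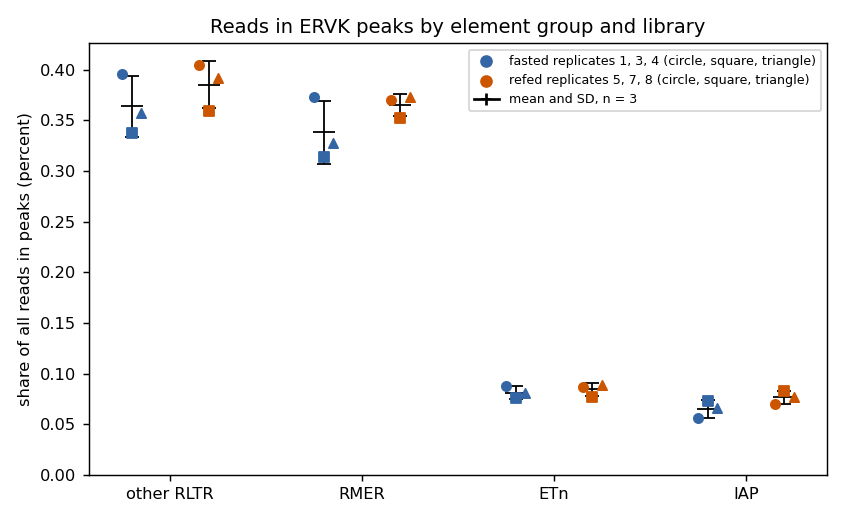
Share of all reads in peaks (percent) that fell in ERVK peaks of 4 element groups, for each fasted (blue) and refed (orange) library, with the mean and SD of 3 libraries. RMER and other RLTR peaks hold most of the reads, between 0.314% and 0.404% each, IAP and ETn peaks stay below 0.1%, and the groups overlap in all 4.

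Genes that silence endogenous retroviruses had 0 peaks called by limma and 3 called by edgeR. The list held 33 genes, of which 30 had 83 peaks as their nearest gene. Over all peaks the share called was 1.23% with limma and 4.01% with edgeR. DESeq2 called 0, against 1.66% of all peaks it tested. An unadjusted limma p below 0.05 was reached by 10 of the 83, against 14.5% of all peaks, and the median change was -0.04. The promoter of Trim28 had 60.2 ± 1.39 RPKM in the fasted group and 62.3 ± 2.93 RPKM in the refed group (SD, n = 3; limma adjusted p = 0.886). That of Setdb1 had 11.3 ± 1.90 and 12.5 ± 1.76 RPKM (limma adjusted p = 0.918). The promoter of Dnmt1, the maintenance DNA methyltransferase, had 39.3, 40.2 and 42.5 RPKM in the fasted libraries and 36.4, 36.2 and 34.2 in the refed. The groups did not overlap, and the difference of -0.19 ± 0.11 did not pass (limma adjusted p = 0.486). Zfp809, which binds a retroviral primer site, had 56.1 ± 3.34 and 59.5 ± 4.77 RPKM at its promoter (limma adjusted p = 0.773).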

How the data were processed

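The 6 libraries were assigned to the fasted or the refed group from their treatment label and title. Per the labels' protocols, about 50000 nuclei from 50 to 100 mg of fresh tissue entered each reaction. The submitters' processing notes name Bowtie2, MACS2, HOMER, DESeq2, SAMtools, FastQC and cutadapt, and the mm9 build. Settings of these, or a read shift for the transposase, were not given in the sources used here. Duplicates were removed, per the file headers, and unique reads were quantified over 1 merged peak list.

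The authors' deposited table holds RPKM, scaled to each library's reads in peaks, and the log2 of it; an empty peak was set to the value of 0.9 reads. Dividing by reads in peaks hides any difference in how much of a library falls in peaks. The steps between RPKM values gave back whole reads (100% whole or empty, tolerance 0.01 reads), which equalled the authors' counts at 3314 of 3314 peaks of their deposited edgeR table. In it the authors also give an FDR, a p-value and a log2 fold change. The deposited ratio and unadjusted p-value per peak were not used. Symbols turned into dates by a spreadsheet (91) were restored through a RefSeq table of GRCm38.p6, which was used for gene names only. Coordinates are 1-based mm9 positions of the files.

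Limma 3.58.1 (R 4.3.3, lmFit, eBayes with an intensity trend) was fitted to log2 RPKM of all 74076 peaks without filter, covariate or pseudocount, with Benjamini-Hochberg adjustment over all peaks and a threshold of 0.05. EdgeR 4.0.16 (quasi-likelihood, TMM, filterByExpr) and DESeq2 1.42.0 were run on the recovered reads. The tests were tried on simulated data. The alternatives were these tools, other scalings and filters, a pseudocount of 1 and leaving out each library. The 60-read minimum, the set with no empty library and the fit without the 2 shallowest libraries were added after the data were seen. Leaving out 1 library leaves 2 in its group.

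Peaks named are the called ones, the 5 strongest, the strongest of each of the 8 most frequent names, the 5 strongest within 1 kb of a gene start and the 3 largest uncalled differences in each direction whose groups did not overlap. Members, lists, families and ranges were chosen with earlier results of these data known. Marker lists and the silencing list were summed over peaks by nearest gene. Intervals and floors cover counting error only.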

Additional observations from a re-analysis of the deposited data

How the results depend on the processing

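No paired analysis was possible because the groups share no replicate number. The count of 10 higher ERVK peaks was 39 with edgeR with or without its filter, 0 without an intensity trend, 1 with quantile normalization, 5 among peaks above the first quartile of RPKM and 4 without the 2 shallowest libraries. The count of 4 lower peaks was 12 with edgeR, 14 with edgeR unfiltered, 0 without a trend, 1 with quantile normalization, 12 with median centring, 8 when fitted to peaks of at least 60 reads alone, 7 with no empty library and 2 without the 2 shallowest libraries. Leaving out 1 library gave 0 to 20 higher (20 without fasted replicate 1, 2 each without fasted replicate 4, refed replicate 5 and refed replicate 7, 0 without refed replicate 8) and 0 to 5 lower peaks (0 without fasted replicate 4, 2 without refed replicate 7, 1 without refed replicate 8). Peaks called at silencing genes numbered 3 with edgeR and edgeR unfiltered, 1 each above the first quartile, with at least 60 reads and with no empty library, and 0 to 2 with 1 library left out (2 without fasted replicate 3). Except for edgeR with its filter and the fit to peaks of at least 60 reads, no share over all peaks stands beside these counts. A move of ERVK peaks alone is thus not told apart from a move of all peaks. The cause of these moves was not tested. The median change of the ERVK peaks in each fit stayed between -0.06 and 0.19. In the main fit it was set by empty peaks, which edgeR and the fit to peaks of at least 60 reads left out. The difference in ERVK read share was 0.0669 points, or 0.0414 to 0.102 with 1 library left out. Signs turned only at uncalled peaks. RMER13B near Mir6419 was -0.0040 with edgeR, -0.0109 unfiltered, -0.0129 with DESeq2, -0.0201 with median centring and -0.0532 without the 2 shallowest libraries. IAPEz-int near Helt (-0.10) and IAPEY_LTR near Arrdc3 (-0.0384) turned with quantile normalization, MMERVK10C-int near Gm6566 (-0.0154) with median centring, and RLTRETN_Mm near Tbl1xr1 (-0.10) and IAPEY3-int near Ctsh (0.12) without the 2 shallowest libraries. With 1 library left out the ranges were -0.10 to 0.10 for RMER13B near Mir6419, -0.0764 to 0.22 for RLTRETN_Mm near Tbl1xr1, -0.14 to 0.28 for RMER19B near Mir6411, -0.15 to 0.0715 for RMER4B near Pisd-ps3, -0.0272 to 0.23 for RLTR33 near Gm839, -0.13 to 0.11 for MMERVK10C-int near Gm6566, -0.40 to 0.11 for IAPEY3-int near Ctsh and -0.032 to 0.38 for IAPEz-int near Helt.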
